A study of Mus musculus with 192 samples.

Results

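The comparison described here was that of wild-type (WT) mice given a single dose of HTT-634.486, a pair of small interfering RNAs (siRNAs), with WT mice given NTC, a non-targeting siRNA. Its members were chosen by their labelled groups and comprised 32 of the 192 libraries of the series, 16 from HTT-634.486 mice and 16 from NTC mice. The regimen written 2[4]6 stands for dosing at 2 months of age and collection of the hippocampus at 6 months, and 6[4]10 for dosing at 6 months and collection at 10 months. There were 8 mice in each of the 4 groups, 4 of each sex, and regimen was kept as a block so that every difference was taken within a regimen. The 16 untreated WT mice of the same regimens had received no siRNA. All WT mice carried unmodified Htt alleles, without the expanded repeat of the zQ175 knock-in mice that form the other genotype of the series, and the route of dosing was not given in the sources used here. RNA was selected by its polyA tail, and the deposited values were counts per gene, 1 library per mouse.

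An siRNA loads its guide strand into an Argonaute protein, which cleaves transcripts that pair with the guide along its length. HTT1a is a short huntingtin transcript that ends within the first intron and is made when splicing of exon 1 to exon 2 is incomplete, which becomes frequent when the CAG repeat is long. HTT-634 and HTT-486 were directed against HTT1a, and HTT-10150, another siRNA of the series, against full-length HTT. Because WT mice lack the long repeat, the comparison asks which hippocampal transcripts differ with this siRNA pair where its intended target is not being produced by an expanded allele.

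Total counts per library were 8.44 to 40.1 M with HTT-634.486 (median 19.99 M) and 16.3 to 42.3 M with NTC (median 27 M). The medians differed more in 6[4]10 mice (17.5 M with HTT-634.486, 27.6 M with NTC) than in 2[4]6 mice (24.2 M and 26.7 M). Levels are given in CPM, a gene's counts scaled to a library of 1 M counts, after scaling by the trimmed mean of M values. The hippocampal dentate granule marker Prox1 was at 112.8 CPM or more in all 32 libraries, and the CA3 marker Grik4 at 49.9 CPM or more. In 6[4]10 mice mitochondrial genome transcripts summed to 31168 to 84295 CPM with HTT-634.486 and 53328 to 70430 CPM with NTC. In 2[4]6 mice the ranges were 59953 to 74580 CPM and 61049 to 71223 CPM. Markers of neighbouring cortex, striatum or thalamus reached 556 CPM with HTT-634.486 and 291 CPM with NTC in 6[4]10, and 371 and 400 CPM in 2[4]6. In 9 of the 32 libraries, 5 with HTT-634.486 and 4 with NTC, the choroid plexus markers summed to over 500 CPM, so results are also given for the other 23 libraries. Sex-linked transcripts went against the labelled sex in 0 of the 32 libraries, and no 2 libraries were identical.

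Htt, the gene that encodes huntingtin (ENSMUSG00000029104, GRCm38 chromosome 5, 34761740 to 34912534, plus strand), was at nearly the same level in both groups. In 2[4]6 mice Htt had a lowest, median and highest level of 152.7, 175.96 and 195.97 CPM with HTT-634.486, against 154.02, 182.7 and 193.8 CPM with NTC. In 6[4]10 mice it had 144.6, 167.6 and 214.3 CPM with HTT-634.486, against 153.3, 165.1 and 185.7 CPM with NTC. The groups overlapped in both regimens, and in 6[4]10 mice the HTT-634.486 libraries were the more spread, with an SD of 23.2 CPM against 12.5 CPM with NTC. The geometric mean of Htt with HTT-634.486 was 97.8% of that with NTC in 2[4]6 (exact two-sided permutation p = 0.594, 8 against 8) and 101% in 6[4]10 (exact two-sided permutation p = 0.88, 8 against 8). With regimens pooled, the mean log2 difference was -0.01 (two-sided permutation test within regimens, p = 0.835, 16 against 16). Gene counts do not separate HTT1a from the full-length transcript. Over both regimens Htt averaged 173.8 ± 19.1 CPM with HTT-634.486, 174.6 ± 13.5 CPM with NTC and 192.98 ± 11.9 CPM in untreated mice (SD, n = 16 each). The log2 change against untreated mice was -0.14 ± 0.04 for HTT-634.486 (SE, adjusted p = 0.0724) and -0.14 ± 0.04 for NTC (adjusted p = 0.111), and these fits share the untreated libraries. For scale, HTT-10150 against the same NTC libraries gave a log2 change of Htt of -0.76 ± 0.10 (SE, adjusted p = 4.64e-05), where 32 of 15927 genes were called (0.201%), 14 of them lower (0.0879%).

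Across all 15899 genes tested, 14 differed at an adjusted p under 0.05, which is 0.0881% of the genes, and all 14 were higher with HTT-634.486. They were Abhd3, Slain1, Gabrr2, Lag3, Fam234a, Ado, Bfsp2, Clmp, Mlph, Brd2, Ick, Rnpepl1, Pdf and Cat. Their log2 changes ran from 0.13 to 1.11 with a median of 0.29, and 1 of them, Gabrr2, reached 2-fold. Over all genes the median absolute log2 change was 0.039. No gene was called lower by edgeR, though 673 genes were lower and 647 higher at an unadjusted p under 0.05, and another 12 genes (7 higher, 5 lower) had an adjusted p from 0.05 to 0.1. DESeq2 on the same counts called 48 genes, 38 of them higher and 10 lower, with all 14 among them. The 14 genes are described here in the order of what their products do. In bulk tissue a change in the number of cells of a type and a change in RNA per cell cannot be told apart, and this applies to every gene below.

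**Figure D1:**
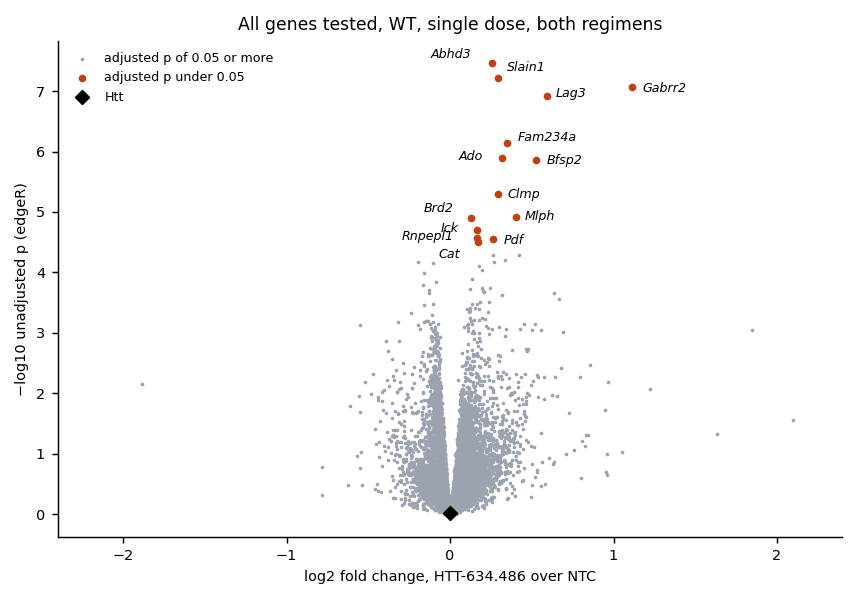
Log2 fold change of HTT-634.486 over NTC (x axis) against -log10 of the unadjusted p (y axis) for each of the 15899 genes, 16 libraries a group. The 14 genes past the threshold lie on the right, Gabrr2 farthest out at 1.11, while Htt lies at the origin.

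Among the raised genes were enzymes of differing function, which act on lipids, thiols, peptides or hydrogen peroxide. Abhd3, a phospholipase that acts on medium-chain and oxidised phospholipids (ENSMUSG00000002475, GRCm38 chromosome 18, 10642092 to 10706771, minus strand), had 43.4, 49.8 and 59.6 CPM as lowest, median and highest with HTT-634.486, against 36.6, 42.3 and 47.97 CPM with NTC. In 13 of 16 HTT-634.486 libraries Abhd3 was above the highest NTC library, and in 2[4]6 mice the groups did not overlap. Its log2 change was 0.26 ± 0.04 (SE, adjusted p = 0.000453), or 19.6% more. Ado, a dioxygenase that oxidises cysteamine and N-terminal cysteines (ENSMUSG00000057134, chromosome 10, 67544511 to 67548955, minus strand), had 60.8, 67.4 and 72.2 CPM with HTT-634.486, against 43.4, 51.6 and 69.9 CPM with NTC. The NTC libraries were the more variable group for Ado, with an SD of 3.64 CPM with HTT-634.486 and 7.89 CPM with NTC. All 16 HTT-634.486 libraries lay above the NTC median and 4 above the highest NTC library, and the log2 change was 0.32 ± 0.05 (adjusted p = 0.00313). Pdf, the mitochondrial peptide deformylase (ENSMUSG00000078931, chromosome 8, 107044698 to 107048614, minus strand), had 14.6, 15.97 and 17.3 CPM with HTT-634.486, against 10.3, 13.5 and 16.5 CPM with NTC, a log2 change of 0.26 ± 0.05 (adjusted p = 0.0341). The annotated exons of Pdf overlap those of Cog8 on the same strand, so reads of these genes may have been divided between them. Rnpepl1, an aminopeptidase (ENSMUSG00000026269, chromosome 1, 92910783 to 92924384, plus strand), had 32.6, 36.8 and 44.6 CPM with HTT-634.486 and 29.6, 32.4 and 37.7 CPM with NTC, a log2 change of 0.17 ± 0.03 (adjusted p = 0.0341). Cat, the peroxisomal catalase that breaks down hydrogen peroxide (ENSMUSG00000027187, chromosome 2, 103453849 to 103485160, minus strand), had 42.1, 50.5 and 62.3 CPM with HTT-634.486 and 39.3, 44.4 and 50.4 CPM with NTC. Its log2 change was 0.17 ± 0.04 (adjusted p = 0.035), close to the threshold, and both groups overlapped for Pdf, Rnpepl1 and Cat. Cat and Gabrr2 were outside the rule that chose the genes to name and were added after their values were seen, so that all 14 are described.

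Receptors and surface proteins included the largest changes of the 14. Gabrr2 encodes the rho2 subunit of GABA-A receptors (ENSMUSG00000023267, chromosome 4, 33062999 to 33095865, plus strand). It was scarce in every library, with 7 to 43 counts with HTT-634.486 and 5 to 33 counts with NTC. Its levels were 0.638, 1.08 and 1.77 CPM with HTT-634.486, against 0.227, 0.481 and 0.832 CPM with NTC. Gabrr2 was above the highest NTC library in 13 of 16 HTT-634.486 libraries, and in 6[4]10 mice the groups did not overlap. The log2 change was 1.11 ± 0.16 (SE, adjusted p = 0.000453). Lag3, an inhibitory immune receptor that binds MHC class II and is made by microglia in mouse brain (ENSMUSG00000030124, chromosome 6, 124904361 to 124911705, minus strand), had 5.02, 6.71 and 11.8 CPM with HTT-634.486, against 3.45, 4.70 and 6.59 CPM with NTC. In 2[4]6 mice all 8 HTT-634.486 libraries lay above the highest NTC library, and in 6[4]10 mice 7 of 8 did. Its log2 change was 0.59 ± 0.09 (adjusted p = 0.000467). Clmp, an adhesion protein of cell junctions (ENSMUSG00000032024, chromosome 9, 40685962 to 40785319, plus strand), had 28.8, 32.2 and 44.7 CPM with HTT-634.486, against 22.9, 26.2 and 33.5 CPM with NTC, a log2 change of 0.29 ± 0.05 (adjusted p = 0.0102). Fam234a, a membrane protein gene (ENSMUSG00000024187, chromosome 17, 26211822 to 26244242, minus strand), had 14.6, 17.5 and 20.3 CPM with HTT-634.486 and 10.6, 13.3 and 16.6 CPM with NTC. Fam234a was above the highest NTC library in 12 of 16 HTT-634.486 libraries, with a log2 change of 0.35 ± 0.06 (adjusted p = 0.00229).

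The next 4 raised genes act in the cytoskeleton, transport and cilia. Slain1, which promotes growth of microtubule plus ends (ENSMUSG00000055717, chromosome 14, 103650228 to 103704907, plus strand), had 73.2, 86.8 and 102.5 CPM with HTT-634.486, against 60.9, 69.7 and 82.1 CPM with NTC. In 11 of 16 HTT-634.486 libraries Slain1 was above the highest NTC library, and its log2 change was 0.30 ± 0.04 (adjusted p = 0.000453). Bfsp2, a beaded filament protein best known from the eye lens (ENSMUSG00000032556, chromosome 9, 103424924 to 103480420, minus strand), had 4.47, 6.59 and 9.65 CPM with HTT-634.486 and 3.36, 4.72 and 7.27 CPM with NTC. Its log2 change was 0.53 ± 0.09 (adjusted p = 0.00313), and 7 of 16 HTT-634.486 libraries lay above the highest NTC library. Mlph, melanophilin, which links Rab27a on vesicles to myosin Va (ENSMUSG00000026303, chromosome 1, 90915085 to 90951142, plus strand), had 1.64, 2.39 and 3.07 CPM with HTT-634.486 and 1.34, 1.75 and 2.92 CPM with NTC, a log2 change of 0.40 ± 0.08 (adjusted p = 0.0199). Ick, a kinase of the primary cilium (ENSMUSG00000009828, chromosome 9, 78109192 to 78172107, plus strand), had 24.5, 29.1 and 30.5 CPM with HTT-634.486 and 22.9, 25.2 and 27.998 CPM with NTC, a log2 change of 0.16 ± 0.03 (adjusted p = 0.0287). The groups overlapped for all 4 genes, most for Mlph, where 2 of 16 HTT-634.486 libraries exceeded the highest NTC library.

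Brd2, a BET-family reader of acetylated histones (ENSMUSG00000024335, chromosome 17, 34112023 to 34122634, minus strand), was the most abundant of the 14 and had the smallest change. It had 199.1, 216.1 and 242.8 CPM with HTT-634.486, against 176.6, 194.6 and 221.2 CPM with NTC, a log2 change of 0.13 ± 0.03 (SE, adjusted p = 0.0199). All 16 HTT-634.486 libraries were above the NTC median and 4 above the highest NTC library. Exons of Slain1, Bfsp2, Clmp, Brd2 and Pdf overlap exons of genes on the opposite strand, and whether the counting used strand is not given in the sources used here.

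**Figure D2:**
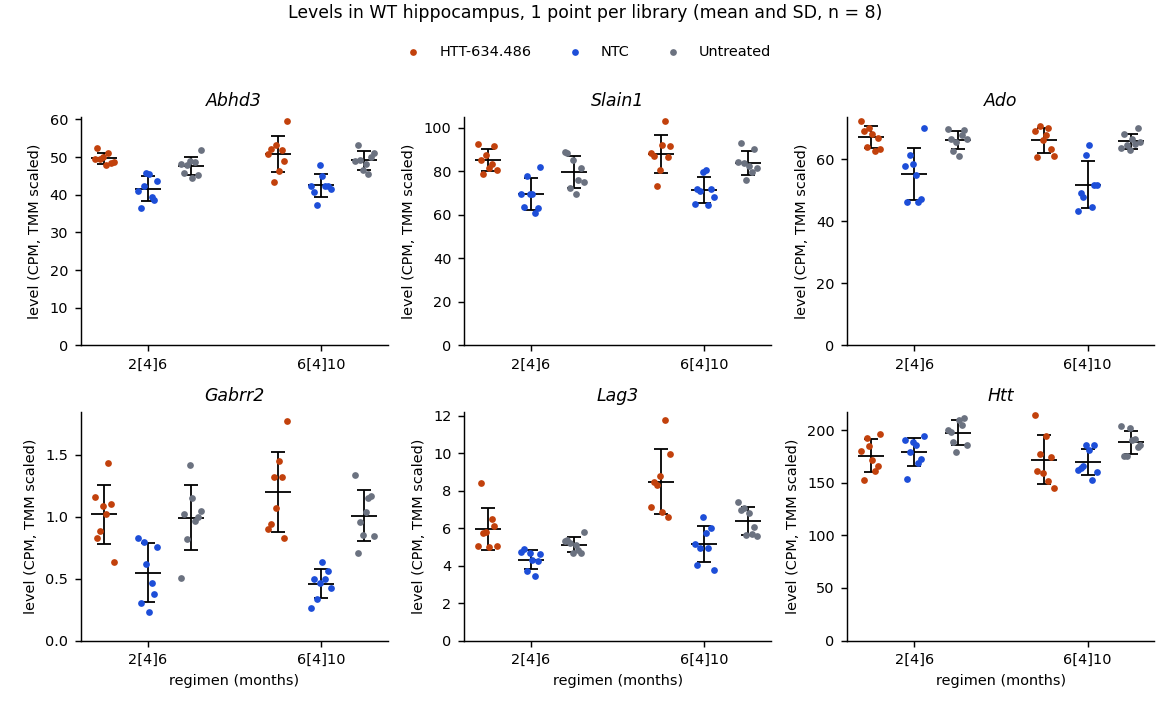
Levels in CPM (y axis) of 5 raised genes and Htt in each WT library by regimen (x axis), with HTT-634.486 left of NTC and untreated mice on the right of each trio; bars are the mean and SD of 8 libraries. For Abhd3, Slain1, Ado and Gabrr2 the HTT-634.486 and untreated points lie at similar heights with the NTC points lower, whereas Lag3 is highest with HTT-634.486 and Htt is highest in untreated mice.

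The 5 lower genes with the smallest p did not pass the threshold in all libraries. Fhl2, a LIM-domain scaffold protein, had 22.3, 28.7 and 32.4 CPM with HTT-634.486, against 28.2, 32.3 and 36.2 CPM with NTC, a log2 difference of -0.20 ± 0.04 (SE, adjusted p = 0.0559). In 15 of 16 HTT-634.486 libraries Fhl2 was below the NTC median. Tsnax encodes translin-associated factor X, part of the C3PO complex that removes cleaved passenger strands of siRNAs. It had 142.6, 151.04 and 160.9 CPM with HTT-634.486, against 149.7, 160.1 and 170.5 CPM with NTC, a log2 difference of -0.09 ± 0.02 (adjusted p = 0.0923), and in 6[4]10 mice all 8 HTT-634.486 libraries were below the NTC median. The other 3 were Btbd10 (log2 difference -0.11, adjusted p = 0.0563), the splicing factor gene Cdc40 (-0.16, adjusted p = 0.0715) and Kcnv1, which encodes a modifying subunit of potassium channels (-0.17, adjusted p = 0.0983).

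The calls depended on which libraries were kept, more than the sizes of the changes did. Without the 9 libraries high in choroid plexus transcripts, 5 genes were called: Lag3 (log2 change 0.68), Bfsp2 (0.57), Abhd3 (0.26) and Rflnb (0.36) were higher and Fhl2 (-0.24, adjusted p = 0.0284) was lower. Of the 14 genes, 3 were still called, and the log2 changes of the 14 were 0.889 to 1.2 times those in all libraries. Leaving out replicate number 2 of every group and sex left 0 genes called by edgeR, with 700 at an unadjusted p under 0.05. In that fit Abhd3 still had a log2 change of 0.22 and Gabrr2 of 1.04. With the number in the library names as a block, 3 genes were called (2 higher, 1 lower), of which 2 were among the 14, Abhd3 and Lag3.

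The effect was then taken in each regimen and sex. In 6[4]10 mice 3 genes were called (0.0189%), namely Gabrr2 (log2 change 1.39 ± 0.23, adjusted p = 0.008), Lag3 (0.73 ± 0.12, adjusted p = 0.008) and Fam234a (0.43 ± 0.08, adjusted p = 0.0423). In 2[4]6 mice edgeR called 0 genes, with 518 at an unadjusted p under 0.05, and the same 3 genes had log2 changes of 0.86, 0.45 and 0.27. The difference between the regimens, tested directly, gave 0 genes by edgeR (365 at an unadjusted p under 0.05). In males 3 genes were called (0.0189%; Slain1, Cat and Gabrr2, with log2 changes of 0.34, 0.25 and 1.24), against 0 in females by edgeR, where 925 genes had an unadjusted p under 0.05. In females the same 3 genes had log2 changes of 0.25, 0.09 and 0.98. The difference between the sexes gave 0 genes by edgeR (331 at an unadjusted p under 0.05), and within the 14 it had the smallest p for Cat (female minus male -0.16 ± 0.07, unadjusted p = 0.0203, adjusted p = 1).

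Both other sets of mice that share no library with this comparison gave a second measurement of the 14 genes. These were zQ175 mice on the same single-dose regimens (16 mice a treatment) and WT mice of 2.6[8]10, which had a dose at 2 months and another at 6 months before collection at 10 months (8 mice a treatment). In zQ175 mice HTT-634.486 differed from NTC in 182 of 16220 genes (1.12%), 82 of them higher (0.506%). In 2-dose WT mice it differed in 81 of 15078 genes (0.537%), 60 of them higher (0.398%) and 21 lower (0.139%). Of the 14 genes, 8 were called higher in zQ175 mice and 8 in 2-dose WT mice, which is 57.1% in each, and all 14 had the same sign in both sets. Over all genes tested in both comparisons, the sign was shared by 65% with zQ175 mice and by 61.6% with 2-dose mice. Abhd3, Slain1, Lag3, Ado, Clmp and Brd2 were called in both sets. Lag3 had log2 changes of 0.58 ± 0.08 in zQ175 mice (SE, adjusted p = 0.000231) and 0.87 ± 0.10 in 2-dose WT mice (adjusted p = 0.000683). Ado had 0.22 ± 0.05 (adjusted p = 0.0265) and 0.44 ± 0.05 (adjusted p = 0.000683), and Clmp had 0.35 ± 0.07 (adjusted p = 0.00821) and 0.56 ± 0.07 (adjusted p = 0.000816). Gabrr2 and Fam234a were called in zQ175 mice (0.64, adjusted p = 0.0386, and 0.28, adjusted p = 0.0294), while Bfsp2 and Pdf were called in 2-dose WT mice (0.67, adjusted p = 0.0191, and 0.63, adjusted p = 0.00586). Mlph, Ick, Rnpepl1 and Cat passed in neither set, with log2 differences of 0.09 to 0.26. One 2-dose NTC library labelled female, female_2, had little Xist (0.713 CPM) and little Y-linked transcript (0.634 CPM summed). It thus had the sex-linked pattern of neither the other females nor the males, and the cause was not tested. Without this library 35 genes in place of 81 were called in 2-dose WT mice, among them 7 of the 8. Bfsp2 no longer passed (0.65, adjusted p = 0.0523). Without libraries high in choroid plexus transcripts, 2 of the 14 genes (Abhd3 and Lag3) passed in zQ175 mice and 9 in 2-dose WT mice, and all 14 kept a higher level with HTT-634.486 in each. A direct test of the difference between zQ175 and WT mice gave 0 genes by edgeR among 16380, with 686 at an unadjusted p under 0.05.

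**Figure D3:**
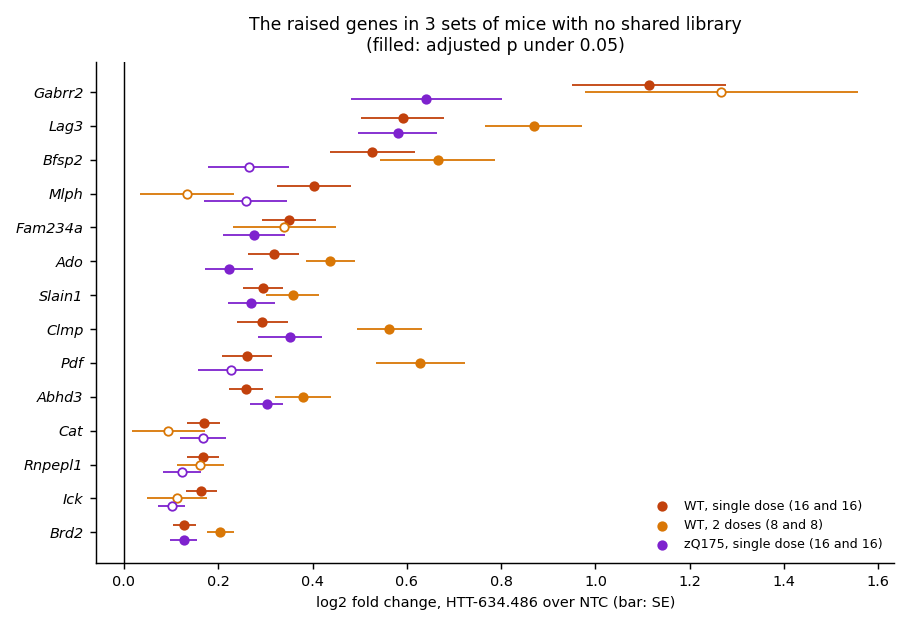
Log2 fold change of HTT-634.486 over NTC (x axis, bar: SE) for the 14 raised genes in single-dose WT mice, 2-dose WT mice and single-dose zQ175 mice; filled points have an adjusted p under 0.05. All points lie right of 0, and Gabrr2 and Lag3 have the largest log2 changes in single-dose WT mice.

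Genes called in those sets were also read in single-dose WT mice. Of the 81 genes raised in zQ175 mice that were tested here, 78 were higher with HTT-634.486, with a median log2 difference of 0.144, against 0.303 for the same genes in zQ175 mice. Of the 99 genes lowered in zQ175 mice, 95 were lower here, with a median of -0.057. Of the genes called in 2-dose WT mice, 56 of 60 raised genes were higher here (median 0.111) and 21 of 21 lowered genes were lower (median -0.085). These are counts of signs only, and the median over all genes was 0.00.

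Untreated mice show where the 2 siRNA groups lay relative to tissue that had received none. The values that follow share the NTC libraries, and the genes were chosen for a low NTC level relative to HTT-634.486, so they are set side by side only. Ado averaged 66.5 ± 3.64 CPM with HTT-634.486, 53.4 ± 7.89 CPM with NTC and 65.9 ± 2.65 CPM in untreated mice (SD, n = 16 each). Its log2 change was 0.02 for HTT-634.486 against untreated mice (adjusted p = 0.904) and -0.30 for NTC against untreated mice (adjusted p = 0.000265). For Gabrr2 these log2 changes were 0.15 (adjusted p = 0.676) and -0.97 (adjusted p = 0.000265), for Abhd3 0.06 (adjusted p = 0.388) and -0.20 (adjusted p = 0.000582), and for Slain1 0.09 (adjusted p = 0.287) and -0.21 (adjusted p = 0.00687). Pdf had 0.02 (adjusted p = 0.915) and -0.24 (adjusted p = 0.00857), and Clmp had 0.05 (adjusted p = 0.729) and -0.25 (adjusted p = 0.00886). Fam234a had 0.11 (adjusted p = 0.323) and -0.24 (adjusted p = 0.0289). The difference between NTC and untreated mice did not pass for the other 6 genes beside Lag3. Among these, Bfsp2 had 0.20 (adjusted p = 0.345) and -0.33 (adjusted p = 0.145), Mlph had 0.10 (adjusted p = 0.606) and -0.30 (adjusted p = 0.113), and Cat had 0.05 (adjusted p = 0.489) and -0.12 (adjusted p = 0.145). Brd2 had 0.04 (adjusted p = 0.367) and -0.09 (adjusted p = 0.0722), Ick had 0.08 (adjusted p = 0.243) and -0.08 (adjusted p = 0.323), and Rnpepl1 had 0.11 (adjusted p = 0.0675) and -0.05 (adjusted p = 0.473). Without libraries high in choroid plexus transcripts, NTC against untreated mice still passed for Abhd3, Ado and Gabrr2, but not for Slain1 (adjusted p = 0.138), Pdf (adjusted p = 0.0806), Clmp (adjusted p = 0.0849) or Fam234a (adjusted p = 0.0902). Lag3, by contrast, averaged 7.23 ± 1.93 CPM with HTT-634.486, 4.74 ± 0.853 CPM with NTC and 5.76 ± 0.872 CPM in untreated mice. It was higher with HTT-634.486 than in untreated mice (log2 change 0.31, adjusted p = 0.0424), while NTC against untreated mice gave -0.28 (adjusted p = 0.0927). Without libraries high in choroid plexus transcripts, 0 of the 14 genes, Lag3 included, passed for HTT-634.486 against untreated mice.

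The NTC groups that took no part in choosing the 14 genes were read the same way. In 2.6[8]10 WT mice the mean of the NTC group was below the untreated mean of the same regimen for all 14 genes, with a median log2 ratio of -0.31, against 0.07 for HTT-634.486. In zQ175 mice NTC means were below untreated means for 14 of 14 genes in 2[4]6 and in 2.6[8]10 (median log2 ratios -0.15 and -0.38) and for 13 of 14 in 6[4]10 (median -0.13). The HTT-634.486 medians in these zQ175 groups were 0.12, 0.04 and 0.08 for 2[4]6, 2.6[8]10 and 6[4]10. HTT-10150 had medians between -0.01 and 0.04 over the untreated means in all 6 combinations of genotype and regimen. These are ratios of group means, with no test. The share of all genes below the untreated mean was not taken for these groups, so the counts have no background to be read against. The 2.6[8]10 WT NTC mean includes female_2, the library with little Xist and little Y-linked transcript.

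**Figure D4:**
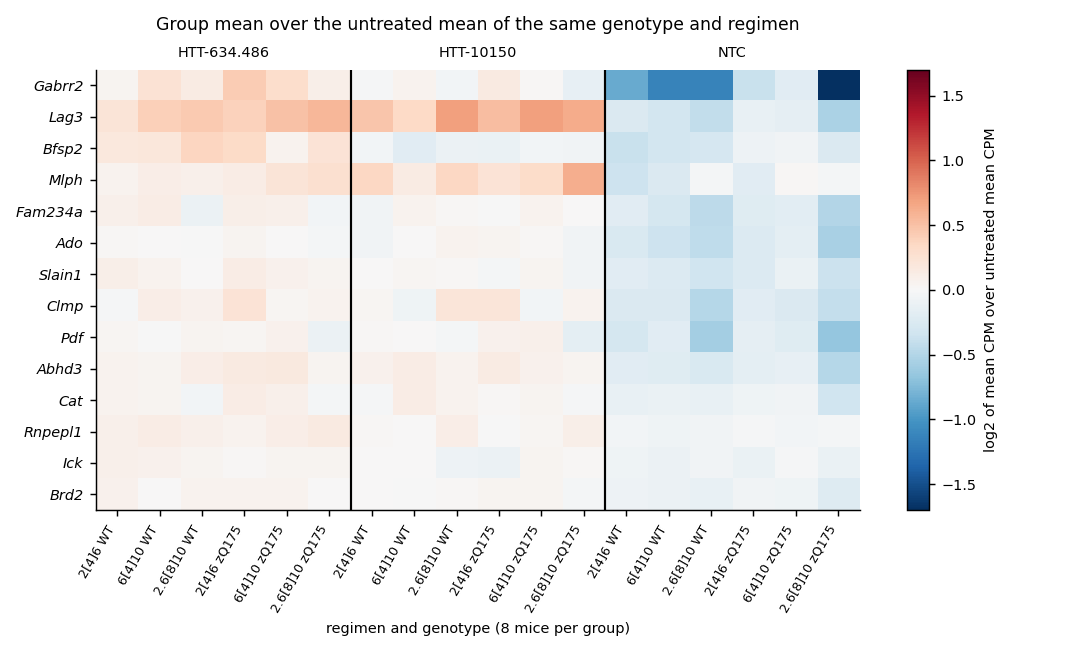
Log2 of the group mean over the untreated mean of the same genotype and regimen, as colour, for the 14 genes (rows) and 18 siRNA-treated groups of 8 mice (columns). NTC columns are mostly blue, HTT-634.486 and HTT-10150 columns mostly near white, and Lag3 is red with both HTT-634.486 and HTT-10150. Mlph is also above untreated mice in every HTT-10150 column (0.133 to 0.612). The single-dose WT columns of HTT-634.486 and NTC were used to choose the genes.

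Against untreated mice, HTT-634.486 differed in 84 of 16286 genes (0.516%), 29 higher (0.178%) and 55 lower (0.338%). Of 20 homeostatic microglia genes 5 were called higher and 0 lower, but 9 were above and 11 below untreated mice in all, with 7 in each direction at an unadjusted p under 0.05 and a median log2 difference of -0.011. Of 18 activated microglia genes 3 were called higher, with 13 above and 5 below (median 0.176). C1qa and C1qb, which encode chains of complement C1q, had log2 changes of 0.36 ± 0.07 (SE, adjusted p = 0.016) and 0.36 ± 0.06 (adjusted p = 0.00955). C1qa had a lowest, median and highest level of 40.1, 54.7 and 76.5 CPM with HTT-634.486 in 6[4]10 mice, against 35.7, 42.02 and 49.6 CPM in untreated mice. In 2[4]6 mice it had 35.2, 46.05 and 62.2 CPM with HTT-634.486, against 31.9, 36.8 and 41.5 CPM in untreated mice, and the groups overlapped in both regimens. Tyrobp, the adaptor of microglial receptors, had a log2 change of 0.39 (adjusted p = 0.0338), and Clec7a and Cst7, genes of activated microglia, had 1.19 (adjusted p = 0.0298) and 1.90 (adjusted p = 0.0338), both from levels under 3 CPM. In NTC mice against the same untreated mice none of these 5 genes passed, with log2 differences of 0.03 for C1qa (adjusted p = 0.897), 0.12 for C1qb (adjusted p = 0.429), 0.16 for Tyrobp (adjusted p = 0.406), 0.31 for Clec7a (adjusted p = 0.66) and 1.03 for Cst7 (adjusted p = 0.293). C4b, a complement gene also made by reactive astrocytes, gave 0.38 with HTT-634.486 (adjusted p = 0.0298) and 0.35 with NTC (adjusted p = 0.0229), each against the same untreated mice. Among the lower genes were Herc3, a ubiquitin ligase gene (-0.16, adjusted p = 0.00955), Nalcn, the sodium leak channel (-0.18, adjusted p = 0.0152), and Tsnax (-0.08, adjusted p = 0.0422). The calls of this comparison were lost when the libraries high in choroid plexus transcripts were left out. Without 13 such libraries edgeR called 0 genes, with 2729 at an unadjusted p under 0.05, against 2530 with all libraries. In that smaller fit C1qa and C1qb had log2 differences of 0.37 and 0.39 (adjusted p = 0.0697 and 0.0597). Whether the calls were lost through these libraries or through the smaller number of libraries was not tested.

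Gene lists for the cell types and pathways of this tissue were read in HTT-634.486 against NTC. Of 599 list genes tested in 38 lists, 1 passed the threshold, Lag3, against 0.0881% of all genes, and 65 (10.9%) had an unadjusted p under 0.05, against 8.3% of all genes. The median log2 difference over all genes was 0.00. Of 20 homeostatic microglia genes, 17 were higher with HTT-634.486 and 3 lower, with a median of 0.095, and 0 passed. C1qa had the smallest p among them, with 0.32 ± 0.08 (adjusted p = 0.106), followed by Itgam at 0.21 (adjusted p = 0.159) and C1qb at 0.24 (adjusted p = 0.255). Of 17 activated microglia genes, Lag3 passed, 15 were higher and the median was 0.054. Clec7a (0.86 ± 0.27, adjusted p = 0.283), Itgax (0.62, adjusted p = 0.386) and Ccl6 (0.42, adjusted p = 0.399) came next.

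**Figure D5:**
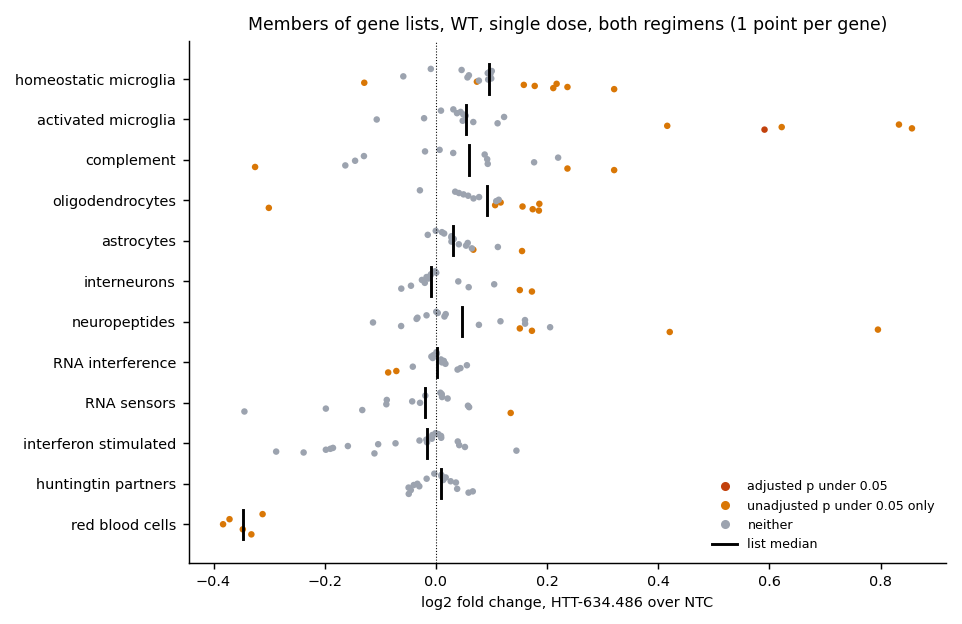
Log2 fold change of HTT-634.486 over NTC (x axis) for each tested member of 12 of the gene lists, 1 point a gene, with the list median as a black bar. Lag3 is the single member past the threshold; the homeostatic microglia median is 0.095 and all 5 red blood cell genes lie left of 0.

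Genes of the machinery that an siRNA uses, and of the response to foreign RNA, showed no call. Of 15 RNA interference genes 9 were higher and 6 lower (median 0.002), with Tsnax the nearest to the threshold and Xpo5, the exporter of microRNA precursors, at -0.07 (adjusted p = 0.561). Of 15 RNA sensor genes 7 were higher and 8 lower (median -0.019). Of 23 interferon-stimulated genes 7 were higher and 16 lower (median -0.016), and 0 of them had an unadjusted p under 0.05. Of 17 genes for huntingtin partners 9 were higher and 8 lower (median 0.010), also with 0 at an unadjusted p under 0.05.

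Other cell types gave shifts without a call. Of 16 oligodendrocyte genes 14 were higher (median 0.092), with the myelin genes Cldn11 at 0.19 (adjusted p = 0.289) and Mog at 0.17 (adjusted p = 0.324). Of these 16, 7 had an unadjusted p under 0.05, and 0 of 16 had one without the libraries high in choroid plexus transcripts. All 5 red blood cell genes tested were lower with HTT-634.486 (median -0.347), Hbb-bs at -0.33 ± 0.11 (adjusted p = 0.297) and Alas2 at -0.38 (adjusted p = 0.329). Of 18 neuropeptide genes 13 were higher and 5 lower (median 0.048), but without those libraries 8 were higher and 10 lower (median -0.011). Cort, which encodes cortistatin, had 0.42 ± 0.09 (adjusted p = 0.0514), just short of the threshold. Cort had 2.65, 3.56 and 4.38 CPM with HTT-634.486 in 2[4]6 mice, against 2.15, 2.55 and 4.19 CPM with NTC. In 6[4]10 mice it had 2.68, 3.38 and 4.34 CPM with HTT-634.486, against 1.86, 2.45 and 3.21 CPM with NTC, and the groups overlapped in both regimens. Of 12 choroid plexus genes 5 were higher and 7 lower (median -0.082), and of 14 genes that mark neighbouring cortex, striatum or thalamus 11 were higher (median 0.146). Without those libraries the choroid plexus list had 8 of 11 genes higher (median 0.236), and the neighbouring-tissue list had 8 of 14 higher (median 0.012). Whether the varying amounts of choroid plexus, blood or neighbouring tissue had a part in the 14 calls was not tested beyond the fits given above.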

How the data were processed

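Hippocampal RNA was purified on columns and polyA-selected, per the labels' protocols. The authors deposited expected counts per gene for each library; RSEM and the GRCm38 build are named in the submitters' processing notes, while for the aligner, the versions and the annotation release the sources used here give nothing. All deposited values were whole numbers. The table held 41135 features, of which 7 had no Ensembl gene ID and were left out; they held 6.85e-06% of the counts. Gene positions were taken from GENCODE vM21, which held 40254 of the 41128 Ensembl IDs. The deposited columns were matched to samples by the library name in each sample's description.

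Genes passing edgeR's expression filter by group were fitted with edgeR 4.0.16 (R 4.3.3; quasi-likelihood F test, TMM scaling, terms for regimen, sex and treatment), with Benjamini-Hochberg adjustment over all genes tested and a threshold of 0.05. Effects by regimen, sex and genotype came from interaction models. HTT-634.486 and NTC against untreated mice came from 1 model of 48 libraries. Htt was also compared by permuting labels within regimens (100000 resamples, or all 12870 splits of 8 against 8 within a regimen, Python 3.11.15 with numpy 2.4.6). DESeq2 1.42.0 and limma 3.58.1 were alternatives. The scripts were tested on simulated data. Named genes were the 12 raised genes of smallest adjusted p with a mean log2 CPM of at least 0, the 5 lower genes of smallest p, Htt, and up to 4 genes of smallest p in a list. The p-values set a difference between groups against the spread between these mice. The labels number animals within a group but do not describe how they were allotted. Treatment therefore cannot be told apart from anything else that differed between the groups. The groups compared, genes and lists were chosen with earlier results of these data known. Choroid plexus transcripts were summed over a marker list, and the 500 CPM limit and the fits without those libraries were added after the data were seen.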

Additional observations from a re-analysis of the deposited data

Results flagged for a closer look

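For the 14 raised genes, the 5 lower genes and Htt, each group of 8 libraries was searched for a library set apart from the others by more than Dixon's 95% limit for 8 samples (0.526 of the range). Of 80 groups tested, 4 held such a library, and chance gives about 1 in 20. Lag3 was at 8.43 CPM in HTT-634.486 female_2 of 2[4]6, against 5.02 to 6.49 CPM in the other 7 libraries of its group. Clmp was at 44.7 CPM in HTT-634.486 female_3 of 6[4]10, against 30.7 to 36.4 CPM in the others, and in the same library Ick was at 24.5 CPM, against 27.7 to 29.9 CPM in the others. Rnpepl1 was at 37.4 CPM in NTC male_4 of 2[4]6, against 29.8 to 32.7 CPM in the others.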

How the results depend on the processing

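The count of 14 genes became 16 with DESeq2 size factors or a filter of 1 CPM in 8 libraries, 12 without the sex term, 15 with limma-voom and 19 with choroid plexus transcripts as a covariate. It became 8 with no filter beyond 1 count (25568 genes tested), 48 with DESeq2 (38 higher, 10 lower), 40 with limma-voom and quality weights (31 higher, 9 lower) and 38 with every single-dose library of both genotypes in 1 model (35 higher, 3 lower), and 84 with untreated mice as the baseline. Leaving out 1 library at a time gave 10 to 35 genes. The 3 libraries that moved the count past 1.5 times were HTT-634.486 male_4 (35 genes) and NTC female_3 (24) of 2[4]6 and HTT-634.486 female_1 of 6[4]10 (26), and all 14 genes were called in each of these fits. Leaving out replicate numbers 1, 2, 3 and 4 gave 5, 0, 6 and 21 genes. The replicate numbers were not taken to pair the animals, since the labels do not say that they do. Deviations of same-numbered pairs had correlations from -0.351 to 0.38 (mean 0.0498), over 0.1 in 7 of 16 pairs. Of 48 other pairs of the same regimen and sex, 7 were over 0.1 (mean -0.0804). These correlations do not decide whether same-numbered animals share spread. A replicate block gave 27 genes (21 higher, 6 lower, 12 of the 14), and a block by the number in the library names gave 3 (2 higher, 1 lower, 2 of the 14). Without libraries high in choroid plexus transcripts the counts were 5 here and 51 in zQ175 mice. Against untreated mice they were 0 for HTT-634.486 and 24 for NTC. Without the NTC library labelled female that had little Xist and little Y-linked transcript, the 2-dose WT count was 35. The log2 change of Htt, near 0, was 0.0005 in that larger model and 0.0417 without libraries high in choroid plexus transcripts; it ran from -0.028 to 0.0126 without single libraries and from -0.0352 to 0.026 without replicate numbers, and the mean log2 difference of its level from -0.0336 to 0.007. The cause of these shifts was not tested. For the other comparisons, DESeq2 size factors kept counts within 1.5 times, and so did no filter, which was not run for the fits within each sex. Counts of Gabrr2 were as low as 7 in a library with HTT-634.486 and 5 with NTC, which limits its precision.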
